A study of Mus musculus with 32 samples.

Results

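The genes described here are 9 chemokines, Cxcl9, Cxcl10, Cxcl1, Cxcl12, Cxcl16, Ccl2, Ccl5, Ccl7 and Cx3cl1. They were chosen by name, as the rows of the count table whose Ensembl identifiers map to these symbols, and all 9 had a row among the 12451 genes of the table. The study asked how Activin-A, a ligand of the TGF-β family, and IFN-γ influence each other's effects on gene expression in melanoma cells grown without other cells of the tumor. YUMM3.3, a mouse melanoma cell line with mutant Braf and loss of Cdkn2a, was left untreated, or treated with 20 ng/ml IFN-γ, with 40 ng/ml Activin-A, or with both, for 4 or 12 hrs. Each of the 8 groups held 4 wells of 1 cell line, giving 32 samples, so the p-values below measure the spread between wells and not between tumors or animals. RNA was counted by BRB-seq, which tags the 3′ end of each RNA with a barcode of its well before the wells are pooled.

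Chemokines are small secreted or membrane-bound proteins that attract leukocytes through receptors coupled to G proteins. CXCL9 and CXCL10 bind CXCR3 on activated T and NK cells. CCL2 and CCL7 draw monocytes through CCR2, and CCL5 acts on T cells and monocytes. CX3CL1 and CXCL16 are made as membrane proteins whose chemokine part is shed by metalloproteases. CXCL12 binds CXCR4 and ACKR3, and CXCL1 attracts neutrophils through CXCR2. IFN-γ acts through JAK kinases on transcription factors that bind GAS elements and induces IRF1, a factor that binds ISRE elements, and Activin-A acts through its receptors on SMAD2 and SMAD3.

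The wells held 654539 to 1455074 counts each, with a median of 988019.5. Across 48 pairs of replicate wells the chi-square per gene was 1.16 to 1.54, but reached 2.45 to 2.89 where 1 well, Activin-A replicate 1 at 4 hrs, was in the pair. That well stood apart, and no chemokine call of the comparisons with Activin-A at 4 hrs changed without it. Of 8 melanocyte lineage markers 7 were in the table, with a summed level of 321 to 451 CPM (counts scaled to a common library size) per well. The 5 leukocyte markers in the table, of 10 listed, summed to 7.74 to 27.5 CPM. Lyz2 gave 2 to 17 counts per well, Cd68 0 to 13, and Ptprc, the defining leukocyte gene, at most 5. The 4 fibroblast and pericyte markers in the table, of 5 listed, summed to 39.7 to 83.8 CPM, with Col1a1 at 18 to 93 counts per well. None of 4 endothelial markers was in the table.

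Treatment with IFN-γ raised 4 of the chemokines and lowered 1. Ccl2, Cxcl10 and Cx3cl1 were higher at both times, Ccl7 was higher at 12 hrs, and Cxcl12 was lower at 12 hrs. Cxcl9 and Ccl5 stayed near their untreated levels, and Cxcl1 and Cxcl16 had too few counts to test at either time. Activin-A lowered Ccl2 under IFN-γ at both times and Cxcl10 under IFN-γ at 12 hrs, and in cells without IFN-γ it lowered Ccl2 and raised Cxcl12 at 12 hrs. DESeq2, the study's test, did not call the changes of Cxcl10 under IFN-γ and of Ccl2 without IFN-γ at 12 hrs. Counts from a whole well do not tell a change in each cell from a change in the share of cells that make the RNA.

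In numbers, 6 of the 9 chemokines passed the filter on low counts at 4 hrs and 7 at 12 hrs, Ccl7 being the addition. At 12 hrs Ccl7 was low without IFN-γ, so a gene with its counts could pass only through the groups where it was high, and it is left out of the counts set beside the share of all genes where IFN-γ is compared with no IFN-γ. A gene was called when the adjusted p of edgeR's quasi-likelihood test, taken over all genes tested, was under 0.05. With IFN-γ alone against untreated, 3 of the 6 tested were called higher at 4 hrs, where 4.29% of all genes tested were called higher. At 12 hrs Ccl7 was called higher, and of the other 6 chemokines 3 were called higher, beside 6.43% of genes, and 1 lower, beside 2.82%. The median log2 fold change was 1.13 over the 6 chemokines and -0.01 over all genes at 4 hrs. With Activin-A alone against untreated, edgeR called 0 of 6 at 4 hrs, where 1.64% of genes were called. There, 1 chemokine had an unadjusted p under 0.05 and DESeq2 also called 0. At 12 hrs 1 of 7 was called higher, beside 1.25% of genes, and 1 lower, beside 1.16%. With both factors against IFN-γ alone, 1 of 6 was called lower at 4 hrs, beside 0.252% of genes, and 2 of 7 were called lower at 12 hrs, beside 0.568%. With both factors against Activin-A alone, 3 of 6 were called higher at 4 hrs, beside 4.41% of genes. At 12 hrs Ccl7 was called higher, and of the other 6 chemokines 3 were called higher, beside 6.18%, and 1 lower, beside 3.44%. These comparisons share groups, so they are not independent of each other.

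**Figure D1:**
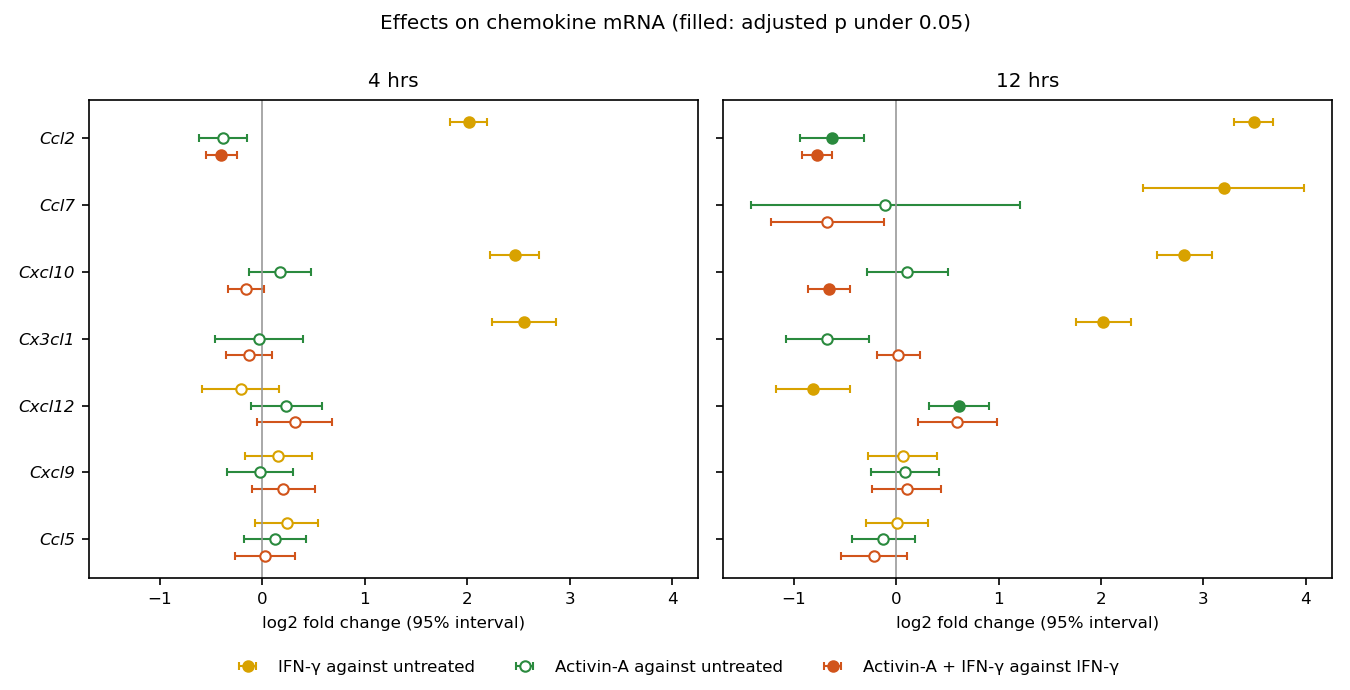
Log2 fold changes of the 7 chemokines that passed the filter (vertical axis) for IFN-γ against untreated, Activin-A against untreated and both factors against IFN-γ, at 4 hrs (left) and 12 hrs (right). Points are edgeR estimates from 4 wells a group, bars are 95% intervals, and filled points have an adjusted p under 0.05. Ccl7 did not pass the filter at 4 hrs. The IFN-γ estimates of Ccl2, Cxcl10 and Cx3cl1 lie at 2.02 or above at both times, while those of Cxcl9 and Ccl5 lie between 0.01 and 0.24.

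Cxcl9 and Cxcl10, both ligands of CXCR3, are neighbors on chromosome 5. In the GENCODE M21 annotation of GRCm38, Cxcl9 (ENSMUSG00000029417) lies at chr5:92321347-92328079 and Cxcl10 (ENSMUSG00000034855) at chr5:92346638-92348889, both on the minus strand and 18.56 kb apart. Cxcl10 lies inside Art3, which had 8 counts over all wells. Their upstream regions are shown because the genes are neighbors of one family and differed in their response to IFN-γ. The 250 bases before each transcription start, from RefSeq on GRCm38.p6 and read 5′ to 3′ on the minus strand, lie at chr5:92348890-92349139 for Cxcl10 and at chr5:92328080-92328329 for Cxcl9. Capitals mark matches to the motifs searched.
Cxcl10: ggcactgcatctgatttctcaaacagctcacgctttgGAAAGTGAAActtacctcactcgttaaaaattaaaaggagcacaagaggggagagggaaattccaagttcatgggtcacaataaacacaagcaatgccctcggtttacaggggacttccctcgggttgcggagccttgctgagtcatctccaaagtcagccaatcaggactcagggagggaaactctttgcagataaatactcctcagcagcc
Cxcl9: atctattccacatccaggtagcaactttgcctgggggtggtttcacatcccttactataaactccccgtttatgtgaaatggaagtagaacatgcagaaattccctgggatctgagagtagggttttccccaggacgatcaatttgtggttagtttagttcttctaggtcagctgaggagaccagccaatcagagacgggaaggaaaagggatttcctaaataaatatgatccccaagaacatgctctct
The motifs, searched on both strands from 250 bases before to 50 after the start, were TTCNNNGAA (GAS), the core of the ISRE (GAAA and GAAA with any 2 bases between), κB (GGG and TTTCC with any 2 bases between) and CAGAC (a Smad box). Cxcl10 held 1 ISRE core, GAAAGTGAAA, which began at position -213 from the start, and Cxcl9 held no match to any of the 4. Of the other chemokines with a promoter in RefSeq's table, Cx3cl1, which rose with IFN-γ like Cxcl10, and Cxcl12 held no match, and Cxcl1 held 2 κB matches and 1 CAGAC. An ISRE core was found in 3.44% of 32851 RefSeq promoters of this length, a GAS match in 8.3%, a κB match in 1.63% and CAGAC in 49.6%. These matches describe the letters in the window and not whether a factor binds there. Only these exact patterns were searched and looser forms were not, so the absence of a match does not show that a window lacks a site for these factors.

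Cxcl10 was low in every well without IFN-γ and rose with it at both times. At 4 hrs its untreated wells held 44.0, 43.3, 43.9 and 45.0 CPM and its IFN-γ wells 244, 221, 235 and 266 CPM. At 12 hrs the untreated wells held 30.9, 39.4, 26.4 and 38.6 CPM and the IFN-γ wells 222, 318, 187 and 228 CPM. The groups lay apart at each time. The increase was 5.52-fold at 4 hrs (log2 fold change 2.46, SE 0.12, edgeR adjusted p = 2.25e-25) and 7.03-fold at 12 hrs (2.81, SE 0.14, adjusted p = 2.21e-35). The difference between the log2 effects at 12 and 4 hrs was 0.36 (95% interval -0.07 to 0.80, edgeR adjusted p = 0.79).

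Activin-A alone left Cxcl10 around the untreated level, at 50.1, 52.0, 62.6 and 33.6 CPM at 4 hrs and at 36.1, 29.0, 34.1 and 49.6 CPM at 12 hrs. With both factors the wells held 228, 203, 221 and 217 CPM at 4 hrs, overlapping the IFN-γ wells. At 12 hrs they held 160, 187, 144 and 115 CPM, and replicate 2 of this group reached the level of the lowest IFN-γ well. Against IFN-γ alone the log2 difference was -0.16 (SE 0.09, edgeR adjusted p = 0.61) at 4 hrs. It was -0.65 (SE 0.10) at 12 hrs, with adjusted p = 5.21e-06 by edgeR and 0.0703 by DESeq2.

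Cxcl9, in contrast, held about the same level in all 8 groups, from 41.4 ± 9.17 CPM (SD, n = 4) in untreated wells at 12 hrs to 54.0 ± 6.56 CPM with both factors at 4 hrs. Every well gave 31 to 65 counts, or 31.4 to 61.9 CPM, and all groups next to each other in level overlapped. Its coefficient of variation over the 32 wells was 16.6%, beside 14.9% for counting error alone at its mean count. The log2 effect of IFN-γ was 0.16 (95% interval -0.17 to 0.48) at 4 hrs and 0.06 (-0.27 to 0.40) at 12 hrs. The upper bounds are far below the effects on Cxcl10, while increases of up to 0.48 and 0.40 on the log2 scale lie within these intervals. The largest log2 difference of Cxcl9, both factors against Activin-A at 4 hrs, was 0.38 (95% interval 0.08 to 0.69, edgeR adjusted p = 0.16).

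**Figure D2:**
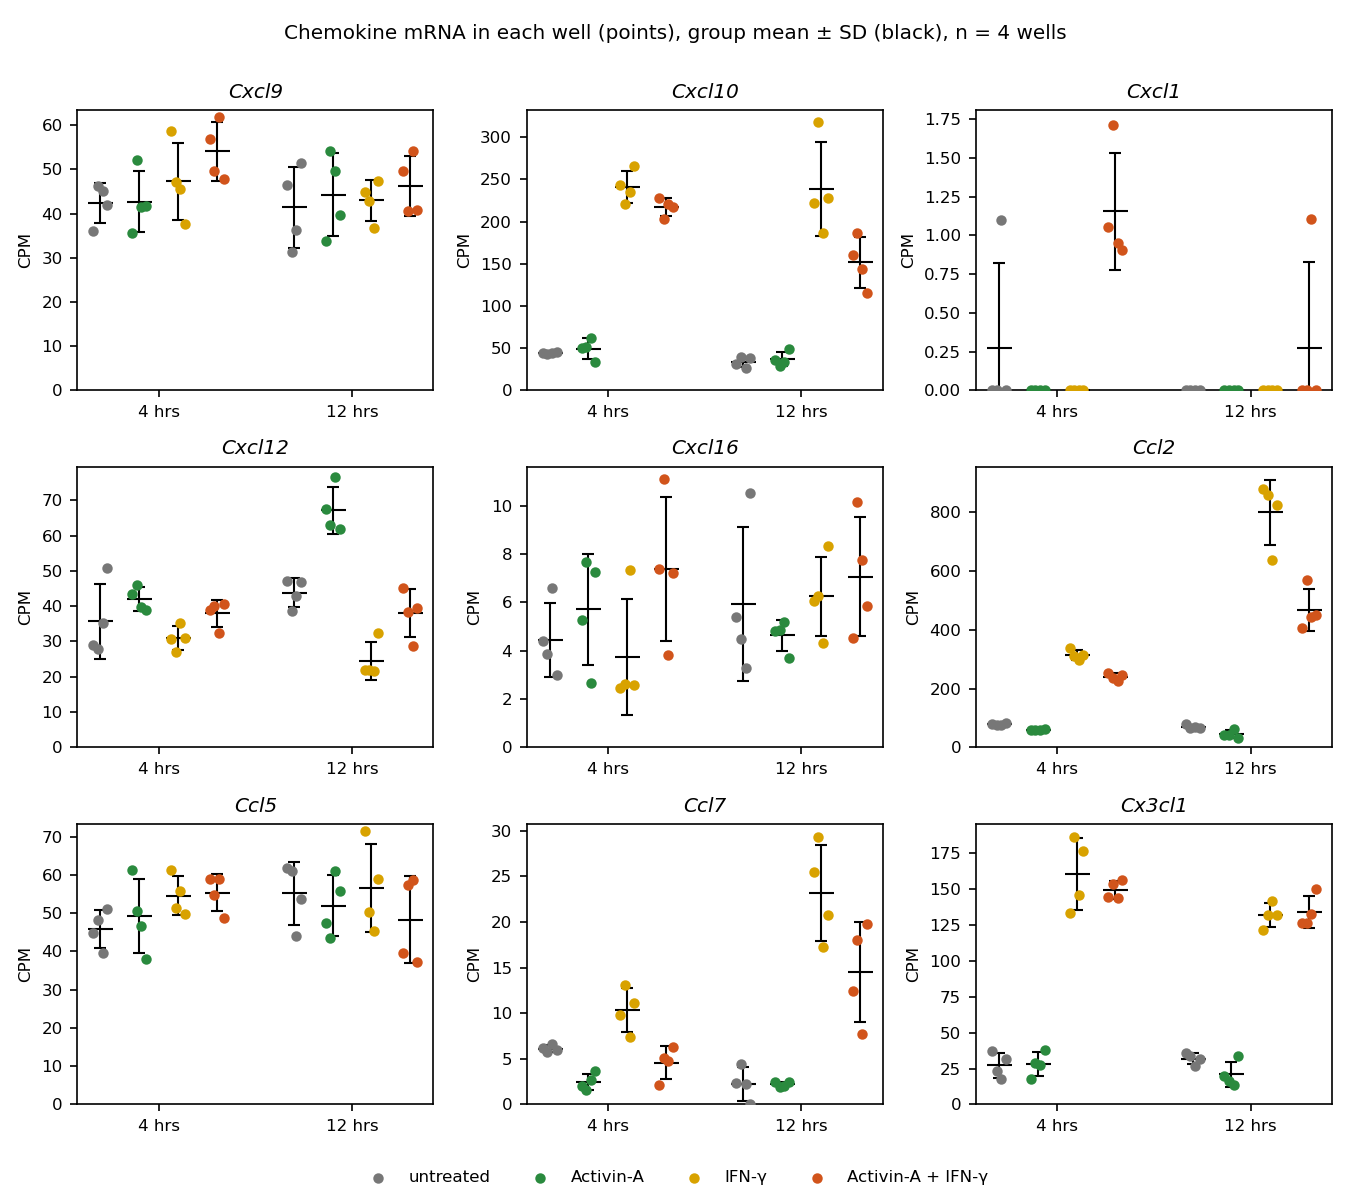
Level of each of the 9 chemokines in every well, in CPM on linear axes that start at 0, by time (horizontal axis) and treatment (color). Points are wells, black lines are the group mean ± SD of 4 wells, and bars that would reach below 0 end at the axis. Cxcl10, Ccl2 and Cx3cl1 separate the groups with IFN-γ from those without it at both times, whereas the Cxcl9 and Ccl5 wells with and without IFN-γ overlap at both times.

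Ccl2 and Ccl7, the monocyte attractants that share the receptor CCR2, lie next to each other on chromosome 11. Ccl2 (ENSMUSG00000035385) spans chr11:82035571-82037453 and Ccl7 (ENSMUSG00000035373) chr11:82045712-82047525 in GENCODE M21 on GRCm38, both on the plus strand with 8.26 kb between them. Ccl2 overlaps Gm17268, which has no row in the table.

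The wells of Ccl2 lay apart in every comparison of treatments at both times. The share of all genes that did so was not computed. Untreated wells held 80.0, 76.0, 74.6 and 82.9 CPM at 4 hrs, and IFN-γ wells held 338, 310, 298 and 315 CPM. At 12 hrs the untreated wells held 79.6, 65.4, 70.5 and 65.5 CPM and the IFN-γ wells 878, 856, 636 and 824 CPM. The increase was 4.04-fold at 4 hrs (log2 fold change 2.02, SE 0.09, edgeR adjusted p = 1.95e-26) and 11.2-fold at 12 hrs (3.49, SE 0.10, adjusted p = 3.66e-56). The untreated level itself differed little between the times (log2 difference -0.15, SE 0.14, edgeR adjusted p = 0.63). The IFN-γ effect at 12 hrs exceeded that at 4 hrs by 1.49 on the log2 scale (SE 0.16, adjusted p = 1.32e-11 by edgeR).

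Activin-A moved Ccl2 the other way. Without IFN-γ, Activin-A wells held 58.7, 58.2, 60.8 and 61.7 CPM at 4 hrs, all below the untreated wells, with a log2 difference of -0.38 (SE 0.12, edgeR adjusted p = 0.079). At 12 hrs they held 42.6, 43.5, 64.1 and 32.2 CPM, with a log2 difference of -0.63 (SE 0.16, adjusted p = 0.00841 by edgeR and 0.0837 by DESeq2). The edgeR call was lost without untreated replicate 1 (adjusted p = 0.0957), Activin-A replicate 1 (0.0644) or Activin-A replicate 4 (0.0681). Under IFN-γ, the wells with both factors held 253, 235, 227 and 245 CPM at 4 hrs, all below IFN-γ alone, and Ccl2 was 1.32-fold lower (log2 difference -0.40, SE 0.08, edgeR adjusted p = 0.0011). At 12 hrs they held 404, 570, 444 and 450 CPM, again below every IFN-γ well, and the log2 difference was -0.77 (SE 0.07, edgeR adjusted p = 7.7e-15). In order of level, IFN-γ at 12 hrs, both factors at 12 hrs, IFN-γ at 4 hrs, both factors at 4 hrs and untreated at 4 hrs followed each other without overlap, and untreated wells at 4 and 12 hrs overlapped.

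Whether Activin-A changed Ccl2 by the same factor with and without IFN-γ was tested directly. The interaction, the log2 effect of Activin-A under IFN-γ minus that without it, was -0.01 (95% interval -0.31 to 0.28) at 4 hrs and -0.14 (-0.50 to 0.21) at 12 hrs. These intervals leave room for differences of up to 0.31 and 0.50 on the log2 scale. The log2 effect of Activin-A under IFN-γ at 12 hrs minus that at 4 hrs was -0.38 (SE 0.12), which edgeR did not call (adjusted p = 0.28). It was called only without replicate 2 of both factors at 12 hrs (adjusted p = 0.037).

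Ccl7 was present at few counts and rose with IFN-γ. At 12 hrs its untreated wells gave 3, 5, 2 and 0 counts and its IFN-γ wells 21, 28, 16 and 25 counts, at 2.25 ± 1.83 and 23.2 ± 5.26 CPM (SD, n = 4). The groups lay apart, and the fitted increase was 9.19-fold (log2 fold change 3.20, SE 0.40, edgeR adjusted p = 8.62e-11). Wells with both factors gave 11, 16, 7 and 17 counts, or 14.5 ± 5.50 CPM, overlapping the IFN-γ wells. Their log2 difference from IFN-γ alone was -0.67 (95% interval -1.22 to -0.12, edgeR adjusted p = 0.35). With Activin-A alone the wells gave 3, 2, 2 and 2 counts.

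At 4 hrs Ccl7 did not pass the filter. Its wells gave 7, 6, 6 and 6 counts untreated, 3, 1, 3 and 4 with Activin-A, 8, 15, 5 and 13 with IFN-γ, and 2, 6, 5 and 7 with both. The ratio of summed, depth-scaled counts was 1.72 for IFN-γ against untreated (95% interval 1.02 to 2.95), 0.413 for Activin-A against untreated (0.183 to 0.870) and 0.434 for both factors against IFN-γ (0.241 to 0.758). These exact intervals cover counting error only. Without a filter on low counts, edgeR called none of these differences (adjusted p = 0.393, 0.315 and 0.233, in the same order). In CPM, the IFN-γ wells lay above the untreated wells and the Activin-A wells below them, and the wells with both factors lay below the IFN-γ wells. In the fit over all 32 wells, the IFN-γ effect on Ccl7 was 2.41 larger at 12 than at 4 hrs on the log2 scale (SE 0.58, edgeR adjusted p = 0.0182). Leaving out 1 well at a time ended this call in 3 cases, untreated replicate 1 at 12 hrs (adjusted p = 0.0588), untreated replicate 4 at 12 hrs (0.0792) and IFN-γ replicate 2 at 12 hrs (0.0546). The untreated level of Ccl7 was 25 summed counts at 4 hrs and 10 at 12 hrs, a log2 difference of -1.31 (SE 0.50, edgeR adjusted p = 0.13) that enters this comparison.

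Of the 7 chemokines tested over both times, edgeR called the IFN-γ effect larger at 12 hrs for Ccl2 and Ccl7, and 0.439% of 9332 genes were called in that direction. Ccl7 had low counts in the groups without IFN-γ and passed the filter through the groups where it was high, so its call is not read against that share. Untreated wells at 12 against 4 hrs gave 0 calls of 7 by edgeR, 1 unadjusted p under 0.05 and 0 calls by DESeq2, beside 4.90% of all genes called. The Activin-A effect differed between the times for 0 of 7 by edgeR, both without IFN-γ (0.0214% of all genes called, 1 chemokine with an unadjusted p under 0.05) and under IFN-γ (0.0964%, 2 chemokines), and DESeq2 called 0 in both.

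Ccl5 (ENSMUSG00000035042, chr11:83525778-83530518, minus strand) was called in no comparison. Its group means ran from 45.9 CPM in untreated wells at 4 hrs to 56.5 CPM in IFN-γ wells at 12 hrs, and single wells from 37.3 to 71.6 CPM. Its coefficient of variation over all wells was 15.9%, beside 13.8% for counting error alone. The log2 effect of IFN-γ was 0.24 (95% interval -0.07 to 0.55) at 4 hrs and 0.01 (-0.29 to 0.31) at 12 hrs. For Activin-A it was 0.12 (-0.18 to 0.43) and -0.12 (-0.43 to 0.18).

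Cx3cl1 and Cxcl16 encode the chemokines that are anchored in the membrane. Cx3cl1 (ENSMUSG00000031778, chr8:94772009-94782427, plus strand) rose with IFN-γ. Its untreated wells held 36.9, 23.1, 17.6 and 32 CPM at 4 hrs and 35.6, 34.1, 26.4 and 31.6 CPM at 12 hrs. With IFN-γ the wells held 133, 187, 146 and 177 CPM at 4 hrs and 121, 132, 142 and 132 CPM at 12 hrs, far above every well without IFN-γ. The increase was 5.88-fold at 4 hrs (log2 fold change 2.56, SE 0.15, edgeR adjusted p = 7.53e-21) and 4.06-fold at 12 hrs (2.02, SE 0.14, adjusted p = 1.20e-24). The log2 effect at 12 hrs minus that at 4 hrs was -0.52 (95% interval -0.98 to -0.06, edgeR adjusted p = 0.58), which was not called.

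Adding Activin-A to IFN-γ left Cx3cl1 at 144, 154, 144 and 156 CPM at 4 hrs and at 126, 126, 133 and 150 CPM at 12 hrs. The log2 difference from IFN-γ alone at 12 hrs was 0.02 (95% interval -0.19 to 0.23), an interval that does not reach the differences of Ccl2 and Cxcl10 in the same wells. Activin-A alone at 12 hrs gave 20.1, 16.4, 13.4 and 33.5 CPM, with 3 of 4 wells below every untreated well. The log2 difference was -0.67 (SE 0.20, edgeR adjusted p = 0.0552). Without Activin-A replicate 4 it was -0.93 (adjusted p = 0.00523), and without untreated replicate 3 the adjusted p was 0.0403.

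Cxcl16 (ENSMUSG00000018920, chr11:70453983-70459984, minus strand, overlapping Zmynd15) gave 2 to 13 counts per well and 180 in all, and it passed the filter at neither time. A level of 3 counts corresponds to 2.06 to 4.58 CPM in these wells, and group means ran from 3.75 CPM with IFN-γ at 4 hrs to 7.38 CPM with both factors at 4 hrs. The ratio of summed counts for IFN-γ against untreated was 0.757 (95% interval 0.341 to 1.63, counting error only) at 4 hrs and 1.08 (0.589 to 1.97) at 12 hrs, so a change under these sizes was not detectable at this depth. For both factors against IFN-γ at 4 hrs, the groups with the highest and the lowest mean of the 8, it was 2.19 (1.12 to 4.55) from 32 against 13 counts, and edgeR without a filter on low counts did not call it (adjusted p = 0.47).

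Cxcl12 (ENSMUSG00000061353, chr6:117168535-117181367, plus strand), the ligand of CXCR4, moved opposite to Ccl2 under each factor at 12 hrs. Untreated wells held 47.2, 38.5, 42.9 and 46.8 CPM, IFN-γ wells 21.8, 22.0, 21.6 and 32.4 CPM, and Activin-A wells 67.5, 62.9, 76.5 and 61.9 CPM. The 3 groups did not overlap. IFN-γ lowered it 1.75-fold (log2 difference -0.81, SE 0.18, edgeR adjusted p = 0.00056), and Activin-A raised it 1.53-fold (log2 difference 0.61, SE 0.15, adjusted p = 0.0047). With both factors the wells held 45.2, 38.3, 28.8 and 39.6 CPM, around the untreated level. They were lower than with Activin-A alone (log2 difference -0.82, SE 0.16, edgeR adjusted p = 2.81e-05). Against IFN-γ alone the log2 difference was 0.60 (95% interval 0.21 to 0.99), which edgeR did not call (adjusted p = 0.13). The interaction on the log2 scale was -0.02 (95% interval -0.54 to 0.51).

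At 4 hrs the Cxcl12 wells of each treated group overlapped the untreated wells, and the log2 differences were -0.21 (SE 0.19) for IFN-γ and 0.24 (SE 0.17) for Activin-A. The IFN-γ effects at the 2 times differed by -0.59 (SE 0.26, edgeR adjusted p = 0.58). At 12 hrs the summed level of 4 fibroblast and pericyte markers was 59.4 to 67.8 CPM in untreated wells, 59.5 to 82.8 CPM with Activin-A, 47.5 to 53.2 CPM with IFN-γ and 40.7 to 47.6 CPM with both. Like Cxcl12, it was lower with IFN-γ alone than in untreated wells, and lower with both factors than with Activin-A alone. Unlike Cxcl12, it was lowest with both factors. Of the 2 markers tested, edgeR called 1 lower with both factors than with Activin-A alone, beside 3.44% of all genes, and DESeq2 also called 1. The part of the marker level in the Cxcl12 values was not tested.

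Cxcl1 (ENSMUSG00000029380, chr5:90891241-90893115, plus strand) gave 7 counts over all 32 wells and was at 0 in 26. Wells with both factors at 4 hrs gave 1, 2, 1 and 1 counts, and the other 2 counts fell in 1 untreated well at 4 hrs and 1 well with both factors at 12 hrs. These values lie under the limit of 3 counts per well that a count of 0 allows.

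The IFN-γ effects with and without Activin-A were compared directly. At 4 hrs edgeR called 0 of 6 interactions, 0 had an unadjusted p under 0.05 and DESeq2 called 0, beside 0.00% of all genes. At 12 hrs edgeR called 0 of 7 and DESeq2 0, 2 had an unadjusted p under 0.05, and 0.0111% of all genes were called. Those 2 were Cxcl10, whose IFN-γ effect was lower with Activin-A (log2 interaction -0.76, 95% interval -1.21 to -0.31, edgeR adjusted p = 0.26), and Cx3cl1, whose effect was higher with it (0.69, 95% interval 0.24 to 1.15, adjusted p = 0.38). Neither passed the correction over all genes.

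**Figure D3:**
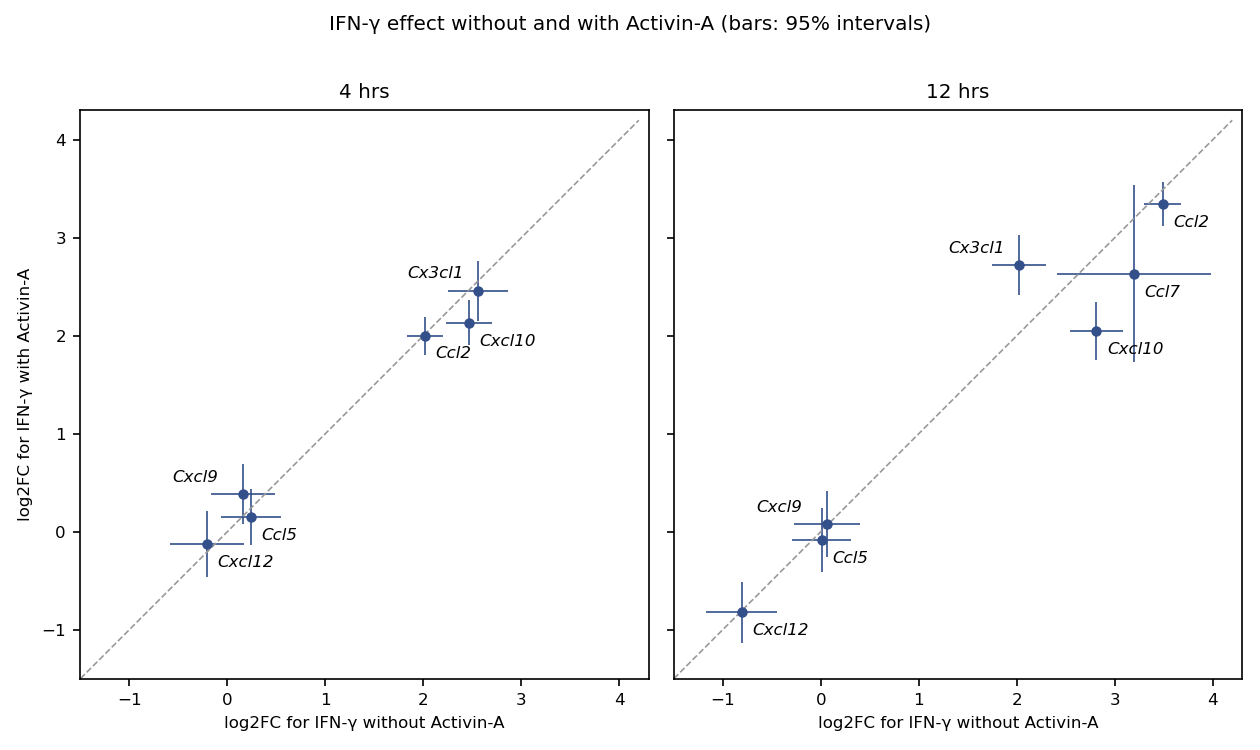
Log2 fold change for IFN-γ with Activin-A (vertical axis, both factors against Activin-A) plotted against that without Activin-A (horizontal axis, IFN-γ against untreated) at 4 and 12 hrs. Points are edgeR estimates from 4 wells a group, bars are 95% intervals, and the dashed line marks equal effects. At 4 hrs the 6 chemokines lie near the line, and at 12 hrs Cxcl10 lies below it and Cx3cl1 above it, with log2 interactions of -0.76 and 0.69 that were not called.

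Of 29 other chemokines listed, 5 were in the table. Ccl22 gave 251 counts over all wells, Ccl9 168, Ccl25 144, and Ccl8 and Cxcl11 9 each. Ccl22 alone passed the filter, at 4 hrs, with log2 differences of 0.65 (SE 0.42) for IFN-γ and 0.55 (SE 0.41) for Activin-A that edgeR did not call. Cxcl11, the third ligand of CXCR3, gave at most 2 counts in a well.

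Receptors for these chemokines were also read out in the melanoma cells. Of 23 listed, 7 were in the table, and Cxcr4 and Ackr3, the receptors of CXCL12, passed the filter at both times, joined by Cxcr3 at 12 hrs. edgeR and DESeq2 called 0 of them with IFN-γ, with Activin-A, or with both against IFN-γ, where 5.06%, 1.64% and 0.810% of all genes were called at 4 hrs and 9.25%, 2.41% and 1.03% at 12 hrs. At each time 0 had an unadjusted p under 0.05 with IFN-γ, 1 with Activin-A and 1 with both against IFN-γ. At 12 hrs, with both, the log2 difference of Cxcr4 was -0.32 (SE 0.14, edgeR adjusted p = 0.36). With both factors against Activin-A, 0 of 2 were called at 4 hrs by edgeR and DESeq2, with 0 unadjusted p under 0.05. At 12 hrs edgeR called 1 of 3 lower, beside 3.44% of all genes. This was Cxcr4, with a log2 difference of -0.45 (SE 0.13, adjusted p = 0.0179), a call DESeq2 did not make.

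All 12 listed enzymes that cut or shed chemokines were in the table, and 8 were tested at 4 hrs and 7 at 12 hrs. With IFN-γ edgeR called 0 of 8 at 4 hrs, beside 5.06% of all genes, with 1 unadjusted p under 0.05 and 0 DESeq2 calls, and 1 of 7 lower at 12 hrs, where 2.82% of all genes were called lower. That gene was Ctsl, a lysosomal protease, with a log2 difference of -0.15 (SE 0.05, edgeR adjusted p = 0.03). With both factors against Activin-A, edgeR called 1 of 8 lower at 4 hrs, beside 1.66% of all genes. At 12 hrs it called 1 of 7 higher, beside 6.18%, and 2 lower, beside 3.44%, and DESeq2 called 1 at each time. At 4 hrs the gene called by edgeR was the membrane metalloprotease gene Mmp14 (log2 difference -0.42, SE 0.11). At 12 hrs Adam17, which encodes a sheddase of CX3CL1, was higher (0.46, SE 0.16, edgeR adjusted p = 0.0483), and Ctsl (-0.17, SE 0.05) and Ctsb (-0.18, SE 0.06) were lower. These genes and Cxcr4 in this comparison were chosen after their values were seen.

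Most of the listed genes of IFN-γ signaling were higher with IFN-γ. Of 14 listed, 10 were called higher and 1, the receptor subunit Ifngr2, lower at 4 hrs by edgeR, beside 4.29% and 0.766% of all genes. At 12 hrs 10 were called higher, beside 6.43%. DESeq2 called 10 of the 14 at 4 hrs and 9 at 12 hrs. The median log2 fold change of the list was 1.66 at 4 hrs and 1.87 at 12 hrs, and that of all genes -0.01 at both. Irf1, the factor that binds ISRE elements, rose by 4.22 at 4 hrs and 3.96 at 12 hrs on the log2 scale. Stat2 rose by 2.45 and 2.14, and Irf7 by 1.70 and 2.52. Under IFN-γ, addition of Activin-A gave 0 calls of 14 at 4 hrs by edgeR and DESeq2, with 0 unadjusted p under 0.05, where only 0.810% of all genes were called, so the count says nothing particular about the list. At 12 hrs it gave 1 call of 14, beside 0.568% of all genes called lower. This was Irf7, with a log2 difference of -0.64 (SE 0.14, edgeR adjusted p = 0.00168).

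Among the other lists, those of NF-κB signaling, Activin-A signaling and mRNA decay held genes called with IFN-γ or with Activin-A. Of 10 genes of the NF-κB list tested at 4 hrs, edgeR called 1 higher with IFN-γ, Bcl3, which encodes a nuclear IκB protein. Its log2 fold change was 1.65 (SE 0.47, edgeR adjusted p = 0.02), a call DESeq2 did not make. Bcl3 was low without IFN-γ, at 2.93 ± 1.73 CPM (SD, n = 4) in untreated wells. It passed the filter through the groups where it was high, so its call is not read against the 4.29% of all genes called higher. At 12 hrs edgeR called 0 of 7 with IFN-γ, beside 9.25% of all genes, with 1 unadjusted p under 0.05 and 0 DESeq2 calls. Of the 9 genes of the Activin-A signaling list tested at 4 hrs, edgeR called 4 with Activin-A alone, beside 1.64% of all genes, and DESeq2 called 3. Activin-A raised Smad7, an inhibitory Smad, by 0.86, Skil, a repressor of Smads, by 0.79 and Inhba, the subunit of Activin-A itself, by 0.51 on the log2 scale. Fst, which encodes the Activin-A antagonist follistatin, was lower with Activin-A at 4 hrs (log2 difference -0.58, SE 0.07) and 12 hrs (-0.25, SE 0.06), and higher with IFN-γ at 4 hrs (1.34, SE 0.07) and 12 hrs (1.41, SE 0.05). At 12 hrs, edgeR called 2 of 8 with Activin-A alone, Inhba, which was 0.56 higher on the log2 scale, beside 1.25% of all genes called higher, and Fst, beside 1.16% called lower. The count by DESeq2 was also 2. Of the factors of mRNA decay, 6 were tested at 4 hrs and 5 at 12 hrs. Zfp36, which encodes the tristetraprolin protein that binds AU-rich elements of cytokine mRNAs, rose with IFN-γ. The log2 fold change was 0.98 at 4 hrs and 1.08 at 12 hrs. Zfp36 was the 1 gene of the list called at each time, beside 4.29% and 6.43% of all genes called higher.

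The genes most like each chemokine were taken by Pearson's r of log2 CPM over the 32 wells among 9331 genes, as a description in which all points share the 8 groups and the depth of their wells. For Ccl2 they were Ifitm3 (0.987), Ly6c1 (0.980) and Ly6a (0.979). For Cxcl10 they were Ifi204 (0.974), Socs3 (0.969) and Socs1 (0.968), the last both feedback inhibitors of cytokine receptors. For Cx3cl1 they were the GTPase gene Igtp (0.972), Irf1 (0.968) and Irgm1 (0.967). For Ccl7 they were Ccl2 (0.862), H2-K1 (0.862) and H2-D1 (0.854), the latter both genes of classical MHC class I. For Cxcl12 they were Fam198b (0.863), Serpinf1 (0.849) and Tpm1 (0.846).

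Among the chemokines themselves, r over the 32 wells was 0.938 between Cxcl10 and Cx3cl1, 0.895 between Cxcl10 and Ccl2, and 0.888 between Ccl2 and Cx3cl1. It was -0.69 between Cxcl12 and Ccl2 and 0.323 between the neighbors Cxcl9 and Cxcl10. For Cxcl9 the closest gene, Ndufaf7, reached 0.731 and for Ccl5 the closest, Pds5b, reached 0.568.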

How the data were processed

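The authors deposited 1 table of raw counts per gene, with 12451 Ensembl genes in 32 wells of YUMM3.3 cells. Per the labels and the submitters' processing notes, reads were aligned with STAR 2.7.10b to GRCm39 (mm39), counted with featureCounts and tested with DESeq2 1.36.0. The strand setting, the use of molecular identifiers and the annotation release are not given in the sources used here, so counts may include PCR copies and intervals from counts cover counting error only. Every gene in the table was above 0 in at least 4 samples, so a gene outside it was not analysed here.

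Symbols were joined by Ensembl identifier from a GENCODE M21 table (12437 matched, 14 did not). Positions are those of that annotation on GRCm38 and promoters are from RefSeq on GRCm38.p6. Both differ from the authors' build, and no coordinates were converted. Promoters of 5 of the 9 chemokines matched. The dose of Activin-A is that of the labels and of the study's methods, while some of its figure legends give a higher dose.

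Counts were tested with edgeR 4.0.16 in R 4.3.3 (filterByExpr, TMM, quasi-likelihood F-test, Benjamini-Hochberg adjustment over all genes tested). The fits took the 16 samples of a time point (9137 genes tested at 4 hrs, 8971 at 12 hrs), or all 32 (9332 genes) for comparisons between times. The SE is the absolute log2 fold change divided by the square root of F. CPM levels use 1 TMM scaling of all 32 samples. Replicate numbers did not pair the wells. Alternatives were DESeq2 1.42.0, RLE scaling, no filter, at least 10 counts in every sample, stricter thresholds, the replicate block and each well left out. The genes, lists and rules were chosen with earlier results of these data known. Genes named are the 9 chemokines, other chemokines that passed the filter, up to 4 called genes with the largest change in each other list, and the 3 genes most like each chemokine by Pearson's r of log2 CPM (prior count 2). 1 gene that this rule names is not reported here.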

Additional observations from a re-analysis of the deposited data

Results flagged for a closer look

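Of 63 groups of 4 wells examined for a well far from the others, 2 had one, and chance gives about 1 in 20. Cxcl12 in IFN-γ replicate 4 at 12 hrs held 32.4 CPM, beside 21.6 to 22.0 CPM in the other wells, and the decrease of Cxcl12 with IFN-γ stayed called by edgeR without any single well (log2 difference -1.01 to -0.76). Cxcl16 in IFN-γ replicate 3 at 4 hrs held 7.35 CPM, which is 5 counts beside 2 or 3 in the other wells.

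The effect of IFN-γ differed between the times, by edgeR's test of the difference, for Ccl2 by 1.49 and for Ccl7 by 2.41 on the log2 scale, with the larger effect at 12 hrs in both.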

How the results depend on the processing

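Most results kept their direction and call under the alternatives. Requiring an absolute log2 fold change of at least 0.5 left 0 chemokines called for both factors against IFN-γ at 4 hrs, instead of 1. DESeq2 called 1 instead of 2 for Activin-A against untreated at 12 hrs (not Ccl2, adjusted p = 0.0837) and 1 instead of 2 for both factors against IFN-γ at 12 hrs (not Cxcl10, adjusted p = 0.0703). The cause was not tested. For the difference between the IFN-γ effects at 12 and 4 hrs, 1 instead of 2 was called at an adjusted p under 0.01, by DESeq2 (which gave no adjusted p for Ccl7) and with at least 10 counts in every sample (which left Ccl7 out). Leaving out 1 well at a time gave 1 to 3 calls for Activin-A against untreated at 12 hrs, 1 to 2 for the difference between the IFN-γ effects, and 0 to 1 for the difference between the Activin-A effects under IFN-γ.

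Of 60 estimates that changed sign in an alternative, none was called in either setting, and their largest absolute log2 value was 0.41. The adjusted p of Ccl2 for both factors against IFN-γ at 12 hrs ranged from 1.21e-30 to 5.6e-05 over the alternatives, and that of Cxcl12 for Activin-A at 12 hrs from 0.00402 to 0.0465. Of the 3 genes most like Ccl7, 1 was kept with a prior count of 0.5. The replicate block changed 0 calls, with 5 chemokines called for IFN-γ and 2 for both factors against IFN-γ at 12 hrs. Wells with the same number did not vary together (0 of 112 pairs with r over 0.1), and 6 of 32 correlated best with their own number. Depth limits Cxcl1, Cxcl16 and Ccl7 at 4 hrs, where 3 counts correspond to 2.06 to 4.58 CPM.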
